A study of Homo sapiens with 118 samples.

Results

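Gene expression was compared between HepaRG cells exposed to scriptaid at 94.5 µM, the highest of its 5 concentrations (C5), and at 44.46 µM, the middle one (C3). The members are the 3 libraries of the group scriptaid_C5 and the 3 libraries of the group scriptaid_C3, 6 of the 118 libraries of the series, chosen by their group labels. The step was picked with earlier results of these data known, as the one that holds most changes of this chemical, so the number of changes is a description. HepaRG is an established human liver cell line. It was used here as cryopreserved cells in the differentiated state, kept in culture for 7 days and then exposed for 72 h with daily renewal of the chemical. All groups used below shared the cells, the medium, the exposure time and the plate (plate E), and differed in chemical and concentration. The other scriptaid groups were C1 at 4.94 µM, C2 at 14.82 µM and C4 at 60 µM, with 3 libraries each. Replicates 1, 2 and 3 of every group came from 3 batches of HepaRG cells, named batch 1, 2 and 3 here. Each library is one culture, the cells of a batch share their source, and p-values measure the spread between these batches. Solvent-control libraries were not used here, so every difference is between exposed cells. What limits the model is that the cells are one line derived from a tumour, and that differentiated cultures of this line hold hepatocyte-like and biliary-like cells side by side.

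Scriptaid is a hydroxamic acid that inhibits histone deacetylases, the enzymes that take acetyl groups off histones and other proteins. Acetylated histones are in general found at open, active chromatin, and blocking the deacetylases changes transcription in both directions. Liver cells depend on a network of transcription factors such as HNF4A and CEBPA that keeps genes for plasma proteins, drug metabolism and bile acid transport at high levels. Vorinostat, another hydroxamic acid, and tacedinaline, a benzamide, served as comparisons from the same plate. Expression was measured with TempO-Seq, in which pairs of probes are joined on the target transcript and the joined pairs are counted by sequencing. A feature is one probe pair, named by gene symbol and probe number where a gene has several.

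Total counts were 2240959, 3181970 and 3542018 in the C3 libraries and 2066335, 3123879 and 1785844 in the C5 libraries (batches 1, 2 and 3). The groups overlapped (exact two-sided permutation test p = 0.2, where 3 against 3 cannot go below 0.1). Features with at least 5 counts numbered 12202, 12882 and 13224 at C3 and 11943, 12739 and 11836 at C5 (p = 0.2 by the same exact test). One scriptaid library stood apart from its group. C4 replicate 3 had 10223 features with at least 5 counts, and 2074 features held 80% of its counts, against 3033 to 3441 in the other 14 scriptaid libraries. Its mean correlation with the other libraries of its group was 0.819. It belongs to neither C3 nor C5, but it enters the common estimate of spread in the fit of all 15 scriptaid libraries. Counts over all features are therefore given with it and without it, and counts within gene lists with it unless stated. The labels give liver progenitor cells as the cell type, and hepatocyte markers were abundant in both groups. The summed level of 9 features of 8 marker genes was 14815 to 28539 CPM (counts scaled to a common library size) at C3 and 5796 to 8685 CPM at C5, and all 9 fell. Among cholangiocyte markers EPCAM and CFTR were at 0 in all 6 libraries, and the summed level of the 5 genes was 58.3 to 87.5 CPM at C3 and 82.2 to 131 CPM at C5, with none of 3 tested features called. Macrophage markers summed to 25.0 to 29.3 CPM at C3 and 20.4 to 42.1 CPM at C5, most of it from CD68 (mean ± SD, n = 3, 22.3 ± 0.793 CPM at C3 and 24.9 ± 12.7 CPM at C5), with none of 2 tested features called and CD163, MARCO, LYZ, C1QA and C1QB at 0 in both groups. Lymphocyte markers summed to 0.263 to 13.0 CPM at C3 and 2.43 to 7.81 CPM at C5, with PTPRC, MS4A1 and NKG7 at 0 in both groups and the 1 tested feature, a probe of CD3D, not called. Stellate or fibroblast markers summed to 220.4 to 268 CPM at C3 and 161 to 183 CPM at C5, with 2 of 8 tested features falling and COL1A2 and THY1 at 0 in both groups. Endothelial markers summed to 12.7 to 17.8 CPM at C3 and 0.453 to 6.24 CPM at C5, and the 1 tested feature, a probe of KDR, fell. Whether cells other than hepatocyte-like ones had a part in the results below was not tested.

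In the step from C3 to C5, many genes of the differentiated liver cell fell. The largest rises came from little or no signal at C3, but the median rising feature changed 2.6-fold. A feature counts as called where its adjusted p lay under 0.05 and its change reached 1.5-fold. Of 12790 features tested, 3190 (24.9%) were called in edgeR's quasi-likelihood test with Benjamini-Hochberg adjustment. They were 1271 rising features (9.94%) of 1205 symbols and 1919 falling features (15%) of 1785 symbols. The falls were more often large, with 857 falling and 291 rising features changed at least 4-fold. At C5, 58 of the falling features had 0 counts in all 3 libraries, and 9 rising features had 0 counts in all 3 libraries at C3. In bulk samples, fewer cells of a type and less RNA per cell cannot be told apart. Of the 3190 features, 3177 moved the same way in all 3 batches. The libraries of C3 and C5 did not overlap in 3149 of the called features, and in 6156 (48.1%) of all features tested. Across all tested features the within-batch differences correlated at 0.660, 0.615 and 0.599 between pairs of batches, a description only, since genes are not independent replicates. Among 1084 symbols with several tested features, 2 (DLC1 and HIST1H2BJ) had features called in opposite directions. Without C4 replicate 3, 4842 of 13228 features (36.6%) were called, 2098 of them rising (15.9%) and 2744 falling (20.7%), and all 3190 were called again in the same direction. The rising count also depended on single libraries of both groups. It was 761, 830 and 823 without C3 replicate 1, 2 or 3, and 922, 873 and 858 without C5 replicate 1, 2 or 3.

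Most calls of the step came between 60 and 94.5 µM. In the same edgeR fit, 0 features were called in C4 against C3 (0%, with 1430 at an unadjusted p under 0.05), and 3229 (25.2%) in C5 against C4. Without C4 replicate 3, the counts were 1 (0.00756%) and 3854 (29.1%). With no filter on low counts and all 15 libraries, 281 features were called in C4 against C3. DESeq2 was not run on these steps. Lower on the series, edgeR called 0 features in C2 against C1 (0%, with 164 at an unadjusted p under 0.05), 8 (0.0625%) in C3 against C2 and 171 (1.34%) in C3 against C1. With the HepaRG batch as a block the last pair of counts was 56 and 262. Without C4 replicate 3 the 3 counts were 0 (0%), 219 (1.66%) and 775 (5.86%). From C1 to C5, 3811 features (29.8%) were called, and 5447 (41.2%) without C4 replicate 3. These comparisons share libraries, so their values stand side by side only. The 1271 rising features had a median log2 change of 1.378 from C3 to C5, beside 0.13 from C3 to C4 without C4 replicate 3. For the 1919 falling features the medians were -1.86 and -0.24. Their median change from C1 to C3 was -0.07 for both sets. Both sets were picked by their change from C3 to C5, and these steps share the C3 libraries. The gap between the medians is thus partly built in and stands as a description.

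**Figure D1:**
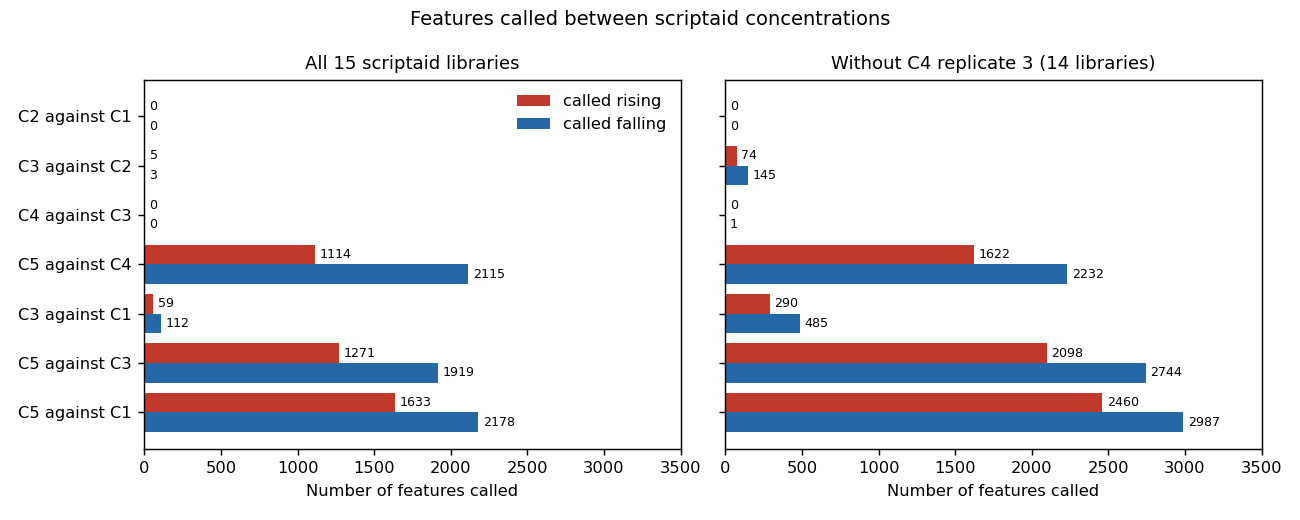
Number of features called rising (red) and falling (blue) between scriptaid concentrations, with all 15 libraries (left) and without C4 replicate 3 (right). The bars of C5 against C3 stand at 1271 and 1919 with all libraries, while C4 against C3 has no called feature with all libraries and 1 without C4 replicate 3.

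The features with the strongest statistical support had tight replicates. They were chosen by their p-values, so tight replicates and groups far apart are partly built in and stand as a description. ALAS1, the rate-limiting enzyme of haem synthesis in liver, had 124, 122 and 115 CPM at C3 and 516, 678 and 681 CPM at C5 (log2 change ± SE of the fit, 2.38 ± 0.23, adjusted p = 2.77e-06). KCNN2, a calcium-activated potassium channel, had 78.3, 69.9 and 55.3 CPM at C3 and 892, 851 and 899.7 CPM at C5 (3.70 ± 0.31, adjusted p = 9.05e-07). BAIAP2, an adaptor between membrane and actin cytoskeleton, had 34.5, 37.6 and 40.8 CPM at C3 and 331, 277 and 315 CPM at C5 (3.03 ± 0.24, adjusted p = 5.18e-07). In all 3 the lowest C5 library was at least 4 times the highest C3 library, and every C4 library lay below every C5 library. In the other direction ZNF532, a zinc finger protein, had 165, 221 and 213 CPM at C3 and 9.05, 9.71 and 6.76 CPM at C5 (-4.53 ± 0.33, adjusted p = 3.86e-07). TAT, the tyrosine aminotransferase of the hepatocyte, had 46.4, 43.2 and 35.8 CPM at C3 and 1.81, 1.21 and 0.520 CPM at C5 (-5.06 ± 0.41, adjusted p = 5.75e-07). For both of these features the groups lay far apart in every batch.

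The largest rises were from near 0, which ranking by log2 change favours. ENO2, the neuronal form of enolase, had 0 counts in all 3 C3 libraries and 7.24, 18.8 and 45.8 CPM at C5, which is at least 24.0-fold higher against a floor of 3 counts per library (adjusted p = 0.000953). DACT3, an inhibitor of Wnt signalling, had 0, 1.18 and 0.263 CPM at C3 and 18.1, 22.8 and 40.1 CPM at C5 (5.59 ± 0.97, adjusted p = 0.000449). FOXO6, a forkhead transcription factor, had 1.75, 0.888 and 5.01 CPM at C3 and 49.3, 79.8 and 97.3 CPM at C5 (4.81 ± 0.59, adjusted p = 1.69e-05). The secretogranin SCG2, a protein of secretory granules, had 0.875, 0.296 and 4.22 CPM at C3 and 28.5, 31.2 and 127 CPM at C5, with the highest value in batch 3 in both groups. OASL, an oligoadenylate synthetase-like protein, reached 76.0, 71.3 and 52.6 CPM from 0.437, 2.37 and 3.95 CPM (4.77 ± 0.61, adjusted p = 2.83e-05). EFNA3 (an ephrin ligand), FGF9 (a growth factor) and HEY1 (a Notch target) completed the 8 largest rises, at log2 changes of 5.30, 5.21 and 5.06. Their C3 libraries held 4 counts in all for each feature. All 8 were higher in all 3 C5 libraries than in any C3 library. They were chosen as called and rising in all 3 batches, so this is no separate support.

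The largest falls ended at or near 0, which the ranking favours in the same way. GYS2, the liver form of glycogen synthase, had 24.1, 5.92 and 7.38 CPM at C3 and 0 counts in all C5 libraries, at least 9.75-fold lower (adjusted p = 7.19e-05). TNFRSF11B, the secreted decoy receptor osteoprotegerin, had 12.2, 10.4 and 12.9 CPM at C3 and 0 at C5, at least 9.28-fold lower. SLC14A1, a urea transporter, had 4.81, 17.5 and 11.1 CPM and then 0, at least 8.71-fold lower. ABCB11, the bile salt export pump, had 11.8, 6.81 and 12.4 CPM in its best supported feature and then 0, at least 8.10-fold lower. SULT2A1, which sulphonates bile acids and steroids, held 256 counts over the C3 libraries and 1 count over the C5 libraries, a ratio of 201 (exact 95% interval 35.8 to 7969.5) after scaling. Intervals and floors cover counting error only, because amplified reads that carry no molecular tag may stem from one molecule. DEFB132 (151 counts against 1), CNTNAP4 (260 against 2) and STRIT1 (136 against 1) completed the set. SLC14A1 had a mean of 3.70 CPM at C1 and 11.1 CPM at C3, so it stood higher at C3 than at C1. GYS2 ran the other way, with 37.1 CPM at C1 and 12.4 CPM at C3.

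**Figure D2:**
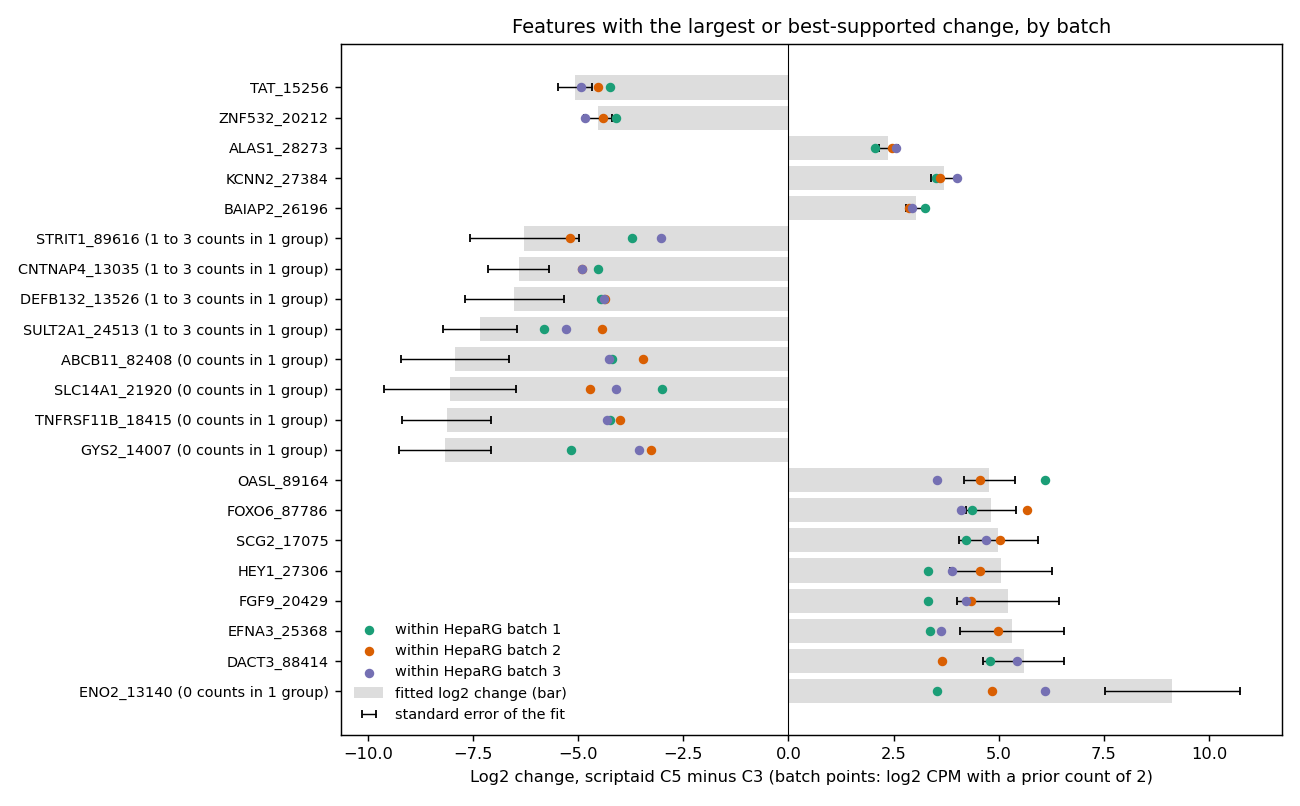
Log2 change from C3 to C5 of 21 of the features with the largest or best supported changes, with the fitted value (bar), its standard error (line) and the difference within each of the 3 HepaRG batches (points, from log2 CPM with a prior count of 2). Each of the 21 features moved the same way in all 3 batches, which was a condition for choosing the 8 largest rises and falls. For those features the agreement is no separate support. Bars of features with 0 counts in a group depend on the fit and are no bound.

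Promoters from both ends of the ranking are shown as examples of the windows in which motifs were counted below. They are the 250 bases before the annotated start of the gene in RefSeq (GRCh38.p14), read 5′ to 3′ on the strand of the gene. Capitals mark matches to the AP-1 motif TGAGTCA or the GC box GGGCGG on either strand. They belong to the 2 largest rises and to 2 of the largest falls. ENO2 lies at chr12:6914330-6914579 (plus strand) and DACT3 at chr19:46661183-46661432 (minus strand). SLC14A1 lies at chr18:45723931-45724180 (plus strand) and ABCB11 at chr2:169031325-169031574 (minus strand).
ENO2: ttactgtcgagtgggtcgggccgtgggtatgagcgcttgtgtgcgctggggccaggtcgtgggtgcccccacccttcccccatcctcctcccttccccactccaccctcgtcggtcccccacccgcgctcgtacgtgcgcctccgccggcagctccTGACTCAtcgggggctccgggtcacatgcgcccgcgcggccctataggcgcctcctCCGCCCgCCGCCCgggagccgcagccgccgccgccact
DACT3: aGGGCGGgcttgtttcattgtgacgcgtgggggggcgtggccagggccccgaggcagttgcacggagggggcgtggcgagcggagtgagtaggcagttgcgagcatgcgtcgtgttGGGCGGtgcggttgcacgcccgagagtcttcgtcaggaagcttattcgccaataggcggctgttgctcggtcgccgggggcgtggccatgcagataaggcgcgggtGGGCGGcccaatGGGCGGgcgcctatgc
SLC14A1: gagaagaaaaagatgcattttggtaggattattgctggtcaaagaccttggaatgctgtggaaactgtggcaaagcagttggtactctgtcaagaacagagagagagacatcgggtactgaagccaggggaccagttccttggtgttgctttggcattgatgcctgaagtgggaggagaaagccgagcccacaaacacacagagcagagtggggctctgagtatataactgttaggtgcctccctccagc
ABCB11: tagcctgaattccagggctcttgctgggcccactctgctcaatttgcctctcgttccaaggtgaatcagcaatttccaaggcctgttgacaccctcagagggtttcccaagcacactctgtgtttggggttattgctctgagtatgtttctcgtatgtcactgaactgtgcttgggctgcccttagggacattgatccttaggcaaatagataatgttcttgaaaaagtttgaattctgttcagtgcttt
ENO2 held 1 AP-1 match and 2 GC boxes within 94 bases of the start, and DACT3 held 4 GC boxes. SLC14A1 and ABCB11 held no match to any of the motifs named here.

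The same window was searched on both strands in the promoters of all symbols with an entry, 969 of 1205 rising, 1410 of 1785 falling and 9217 of 11498 tested symbols. At least 1 GC box was found in 71.2% of rising, 54.9% of falling and 65.1% of tested promoters, and in 42.3% of the 27305 promoters of the table. The TATA box (TATAAA) was found in 7.02% of rising, 8.72% of falling and 5.76% of tested promoters, and in 11.1% of the table. The AP-1 motif was found in 2.37%, 2.84%, 2.41% and 4.16%, and the E-box (CACGTG) in 8.05%, 7.59%, 8.76% and 6.49%, in the same order. The HNF4 motif (CAAAGTCCA) was found in 0.31% of rising, 0.638% of falling and 0.282% of tested promoters, and in 0.293% of the table. The ATF4 and CEBP composite (TGATGCAAT) was found in 0 rising, 1 falling and 6 tested promoters, and in 67 (0.245%) of the table. Among gene lists, 3 of the 15 promoters of called plasma protein genes (20%) and 17 of the 18 of tested cholesterol genes (94.4%) held a GC box. A motif match is a description of the letters in the window and not of binding, and no test was made on these shares.

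Secreted proteins of the hepatocyte fell together. Of 27 tested features of 25 plasma protein genes, 22 fell (81.5%), 0 rose and 5 were not called. Of all features tested 15% were called falling and 9.94% rising. The median log2 change was -1.58 against -0.03 over all features tested. The 3 fibrinogen chains, the clotting substrate, stood at the front. FGG had 2377, 1169 and 1286 CPM at C3 and 325.9, 395 and 185 CPM at C5 (-2.41 ± 0.33, adjusted p = 6.03e-05). FGA fell from 3123, 1456 and 1203 CPM to 360.3, 507 and 214 CPM (-2.42 ± 0.40, adjusted p = 0.000329), and FGB changed by -2.38 ± 0.39, adjusted p = 0.000316. APOB, the protein of very low density lipoprotein, had 2446, 1428 and 1840.3 CPM at C3 and 413, 307 and 127 CPM at C5 (-2.75 ± 0.40, adjusted p = 8.26e-05). Batch 1 was the highest C3 library for all 4 of these features, and the groups did not overlap. ALB, the albumin gene, had 11478, 6176 and 4134 CPM at C3 and 3069, 3283 and 2392 CPM at C5 (-1.32 ± 0.37, adjusted p = 0.0137), a smaller fall. RBP4 and C3 (complement component 3) were not called, at -0.80 and -0.30. Within batches the median of the 27 features was -2.17, -0.87 and -1.72. The proteins of the acute phase, which the liver secretes in inflammation, gave 8 falling and 0 rising of 13 tested, with a median of -1.89, or -1.51 with the feature at 0 in one group set to its bound. FGL1 fell from 1709, 753 and 1110.5 CPM to 221, 219.6 and 108 CPM (-2.70 ± 0.35, adjusted p = 3.1e-05). ITIH4, HP (haptoglobin) and LBP changed by -1.89, -1.93 and -2.01 on the log2 scale and were called. SAA1 and SAA2, the serum amyloids, were not called, at -0.13 and -0.36.

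Falls also outnumbered rises among transcription factors of the liver. Of 23 tested features, 10 fell (43.5%), 2 rose (8.7%) and 11 were not called, beside 15% falling and 9.94% rising of all features tested. The median was -1.49, and within batches -1.37, -0.16 and -1.47, so it was near 0 in batch 2. NR1I2, the pregnane X receptor, held 84 counts over the C3 libraries and 2 over the C5 libraries in its better supported probe (adjusted p = 0.000117). NR1H4, the bile acid receptor FXR, had 20.99, 7.99 and 21.6 CPM at C3 and 1.81, 2.43 and 1.04 CPM at C5 (-3.16 ± 0.53, adjusted p = 0.000322). HNF4A had 14.0, 6.22 and 12.1 CPM at C3 and 1.36, 0.607 and 0.520 CPM at C5 (-3.65 ± 0.90, adjusted p = 0.00621), and PPARA changed by -1.49 ± 0.33. NR1I2 and HNF4A held at most 99 counts per feature over the C3 libraries. CEBPA rose instead, from 2.19, 1.18 and 4.74 CPM to 18.6, 6.67 and 25.5 CPM (2.58 ± 0.63, adjusted p = 0.00595), and ONECUT2 rose by 1.68 ± 0.51. FOXA2, FOXA3, CEBPB and NR5A2 were not called, with log2 changes between -0.38 and 0.10.

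Drug metabolism and the bile acid system held many falling genes as well. Of 36 tested features of drug-metabolising enzymes (median -1.97), 20 fell (55.6%) and 2 rose (5.56%), beside 15% and 9.94% of all features tested. CYP3A4, the main cytochrome P450 of drug oxidation, had 334, 59.2 and 70.1 CPM at C3 and 5.88, 0.910 and 4.16 CPM at C5 in its stronger probe (-5.47 ± 0.74, adjusted p = 5.18e-05). Its C3 libraries spread widely, with batch 1 above both others, and the C5 libraries lay below all of them. UGT2B4, a glucuronosyltransferase, changed by -3.90 ± 0.55, adjusted p = 7.16e-05. The probes of CYP3A4, CYP3A5 and CYP3A7, and of GSTA1 and GSTA2, target near-identical genes, so counts may be shared between them. Both rising features were probes of POR, the reductase that feeds electrons to the P450 enzymes. The stronger one had 124, 141 and 127 CPM at C3 and 496, 445 and 287 CPM at C5 (1.64 ± 0.28, adjusted p = 0.000377). CYP2E1, CYP1B1 and both CYP1A1 probes were not called.

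For bile acid synthesis and transport, 15 of 21 tested features fell (71.4%) and 0 rose, beside 15% and 9.94% of all features tested. The median was -2.97, or -2.39 with features at 0 in one group set to their bounds. BAAT, which joins bile acids to glycine or taurine, had 799.8, 226 and 326.2 CPM at C3 and 13.6, 15.2 and 21.9 CPM at C5 (-4.74 ± 0.48, adjusted p = 3.37e-06). ABCC2, the canalicular export pump for conjugates, had 229, 152 and 165 CPM at C3 and 14.5, 10.9 and 3.12 CPM at C5 in one probe (-4.22 ± 0.43, adjusted p = 3.48e-06) and 131, 78.4 and 91.2 CPM at C3 and 7.69, 2.43 and 11.4 CPM at C5 in the other. ABCC3, the basolateral pump, fell in all 3 of its probes, by -3.15 ± 0.41 in the best supported one. The 4 tested probes of ABCB11 had C5 counts at or near 0, and 3 of them were called. CYP7A1, which starts bile acid synthesis, was not called (-0.87, adjusted p = 0.565), nor was the uptake carrier SLC10A1 (-2.97, adjusted p = 0.0777).

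**Figure D3:**
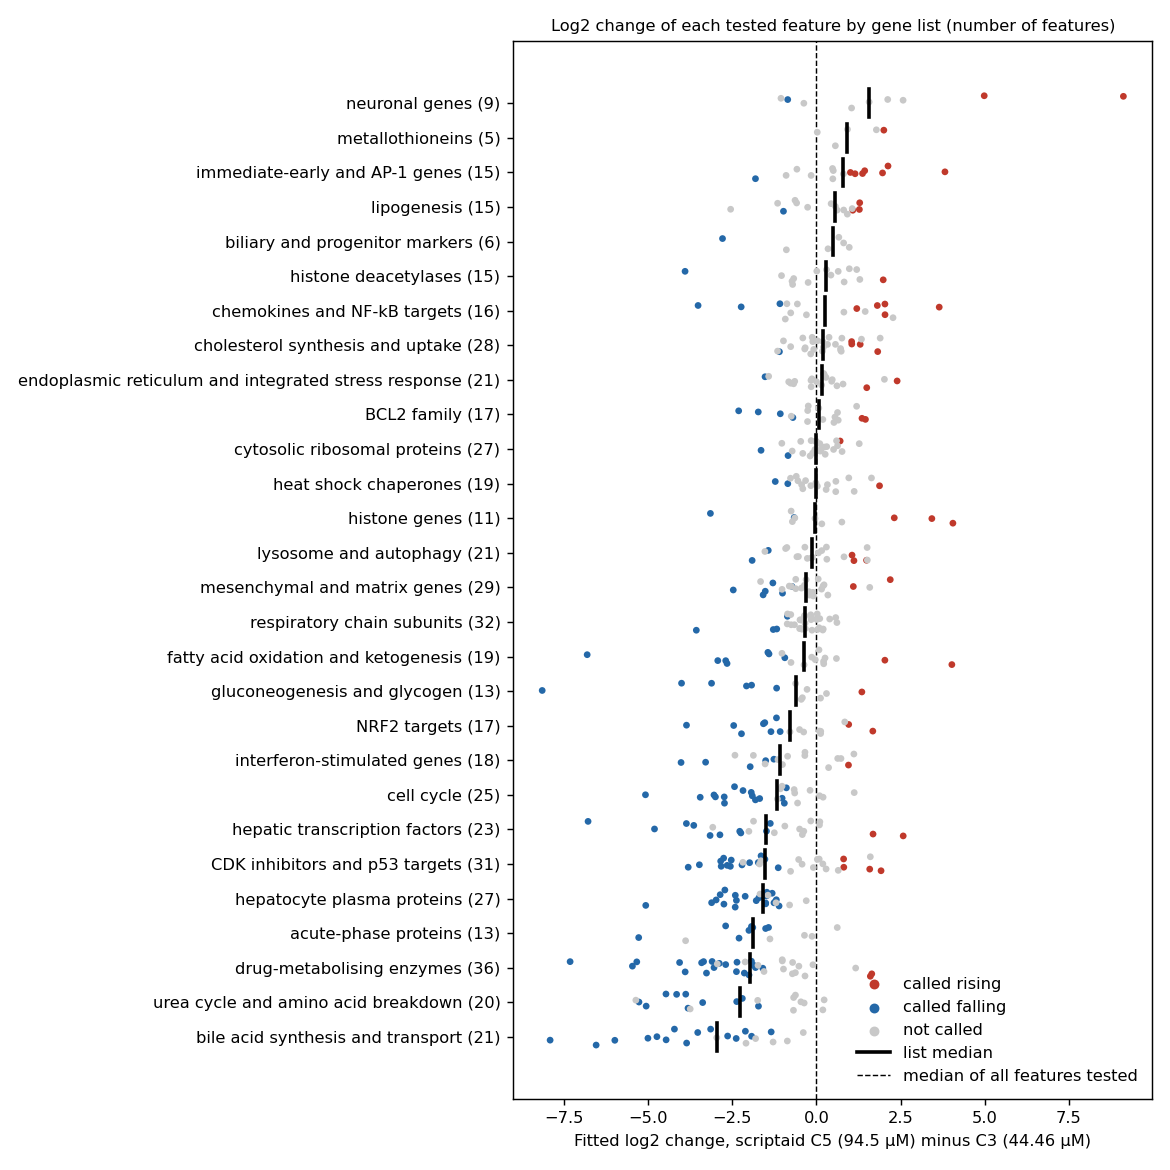
Fitted log2 change from C3 to C5 of every tested feature in 28 gene lists, coloured red where called rising, blue where called falling and grey where not called, with the list median (black bar) and the median of all features tested (dashed line, -0.03). The lists of liver function lie to the left, with medians down to -2.97 for bile acid synthesis and transport, and features at 0 counts in a group are drawn at their fitted value, which is no bound.

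Metabolic genes did not move as one block, and their lists are set beside 15% falling and 9.94% rising of all features tested. Urea cycle and amino acid breakdown had 10 falling and 0 rising of 20 tested (median -2.29, or -1.74 with bounds). AGXT, an aminotransferase of the peroxisome, fell from 244, 76.1 and 75.9 CPM to 11.8, 11.5 and 14.6 CPM (-3.38 ± 0.50, adjusted p = 0.000116), and ARG1, the last enzyme of the urea cycle, changed by -4.16 ± 0.82. CPS1, ASS1 and ASL, its first steps, were not called, at -0.68, -0.37 and 0.19. In fatty acid oxidation and ketogenesis 7 fell and 2 rose of 19 tested (median -0.37). The 2 rising features were PDK4, which blocks pyruvate oxidation, with 145, 118 and 140.4 CPM at C3 and 793, 585 and 271 CPM at C5, and ANGPTL4, an inhibitor of lipoprotein lipase, which rose by 4.03 ± 1.04. HADHA and ACADVL, enzymes of the mitochondrial spiral, were not called, at 0.07 and -0.04. In gluconeogenesis and glycogen 6 fell and 1 rose of 13 tested (median -0.62, and -1.31 without C5 replicate 1, -1.40 without batch 1 and -1.23 with counts thinned to the smallest library total). G6PC, the last step of glucose release, held 66 counts over the C3 libraries and 3 over the C5 libraries. GBE1, the glycogen branching enzyme, rose from 703, 643 and 688 CPM to 1232, 1366 and 2585 CPM (1.35 ± 0.29, adjusted p = 0.0024), while GYS2 (above) was lost.

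Few features of sterol and fatty acid synthesis were called, and among those rises outnumbered falls. Of 28 tested features of cholesterol synthesis and uptake, 4 rose, 1 fell and 23 were not called (median 0.20), which is 14.3% rising and 3.57% falling, beside 9.94% and 15% of all features tested. Without C4 replicate 3 the calls were 8 rising and 2 falling. Within batches 1, 2 and 3 the median of the 28 features was 0.30, 0.37 and -0.19, so batch 3 went the other way. DHCR7, the last enzyme of cholesterol synthesis, had 975, 769.9 and 890.5 CPM at C3 and 1711, 1788 and 1954 CPM at C5 (1.05 ± 0.22, adjusted p = 0.00211). IDI1, an enzyme of isoprenoid synthesis, had 471, 313 and 391 CPM at C3 and 1138, 1053 and 703 CPM at C5 (1.30 ± 0.27, adjusted p = 0.00192). STARD4, a sterol carrier, rose by 1.82 ± 0.30, and INSIG1, which holds the sterol sensor in place, by 1.05 ± 0.30. CYP51A1 fell by 1.10 on the log2 scale in 1 of its 3 probes (adjusted p = 0.0104), and this call was lost without C3 replicate 1 (adjusted p = 0.053) or C5 replicate 3 (0.056). HMGCS1, an early enzyme of the pathway, was not called, at -0.11. In lipogenesis 3 rose and 1 fell of 15 tested, 20% and 6.67%. The median was 0.56, and within batches 0.61, 0.66 and -0.46. SCD, the stearoyl-CoA desaturase, had 442, 386 and 507 CPM at C3 and 1003, 841 and 978 CPM at C5 (1.08 ± 0.26, adjusted p = 0.00582). ACLY (1.29) and 1 of 4 tested features of ACACA (1.28), which supply the building blocks of fatty acids, were also called. The call of ACLY was lost on leaving out any one of 4 of the C3 and C5 libraries (up to adjusted p = 0.0948). That of ACACA was lost on leaving out any one of 5 (up to 0.202), and with the batch as a block (adjusted p = 0.0558). MLXIPL, a transcription factor that responds to carbohydrate, fell (log2 change -0.98 ± 0.28, adjusted p = 0.0144), and was not called without C5 replicate 3 (adjusted p = 0.0613).

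Falls outnumbered rises among proliferation genes and p53 targets. Differentiated HepaRG cells divide little, yet several proliferation genes had clear counts at C3. Of 25 tested cell cycle features 15 fell (60%) and 0 rose, beside 15% and 9.94% of all features tested. The median was -1.16, and within batches -1.49, -1.37 and -1.60. TYMS, the thymidylate synthase, had 763, 608 and 762 CPM at C3 and 54.8, 55.5 and 84.3 CPM at C5 (-3.46 ± 0.45, adjusted p = 2.96e-05). CCNA2, a cyclin, had 91.8, 73.4 and 97.7 CPM at C3 and 18.1, 13.0 and 7.81 CPM at C5, and AURKB, a mitotic kinase, had 80.5, 69.3 and 75.6 CPM at C3 and 7.24, 15.5 and 4.16 CPM at C5. MCM7, part of the replicative helicase, fell by 1.94 on the log2 scale. PCNA and CDC6 were not called, at -0.19 and 0.20. In the stray library C4 replicate 3 TYMS stood at 2069 CPM, against 557 and 453 CPM in the other C4 libraries.

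Of 31 tested features of CDK inhibitors and p53 targets, 14 fell (45.2%), 4 rose (12.9%) and 13 were not called. The median was -1.53, but -0.76 in the 6 libraries of C3 and C5 alone and -0.95 with the probes of a symbol summed. MDM2, which marks p53 for degradation and is itself a p53 target, fell in all 3 probes, from 4085, 3120.0 and 3067 CPM to 571, 575 and 484 CPM in the most abundant one (-2.65 ± 0.26, adjusted p = 3.07e-06). FAS, a death receptor, had 179.7, 189 and 194 CPM at C3 and 22.2, 29.7 and 26.0 CPM at C5 (-2.85 ± 0.29, adjusted p = 3.45e-06). BAX, which permeabilises mitochondria, had 746, 701 and 842 CPM at C3 and 244, 221 and 225 CPM at C5 (-1.73 ± 0.22, adjusted p = 2.88e-05). All 3 probes of TP53I3 and the DNA repair gene DDB2 fell too. The 4 rising features were both probes of GDF15, a stress cytokine, and both probes of TNFRSF10B, a TRAIL receptor. GDF15 rose from 105, 144 and 94.3 CPM to 483, 560.3 and 255 CPM in one probe (1.92 ± 0.39, adjusted p = 0.00153). GADD45A and BBC3 were not called, at 0.08 and between 0.19 and 0.65. In the BCL2 family 2 features rose (11.8%) and 4 fell (23.5%) of 17 tested, beside 9.94% and 15% of all features tested. The 2 rising ones were probes of BCL2L11 (BIM, a death promoter), which rose by 1.35 ± 0.30 in the better supported probe, while the call of the weaker one was lost on leaving out any one of 4 libraries (up to adjusted p = 0.086). The falling ones were BAX, BID, MCL1 and BCL2L1.

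Histone deacetylases, the targets of the chemical, were tested in 15 features. HDAC3 rose, with 53.3, 84.1 and 80.9 CPM at C3 and 262, 244 and 361 CPM at C5 (1.98 ± 0.30, adjusted p = 0.000119), and the groups lay well apart. HDAC7 fell from 67 counts over the C3 libraries to 3 over the C5 libraries, a ratio of 17.5 (exact 95% interval 5.75 to 87.2). Its adjusted p was 0.0101, and 0.0514 without C5 replicate 2, so the call was then lost. The other 13 features were not called in the fit of all 15 libraries. HDAC1 and HDAC2, class I enzymes like HDAC3, had log2 changes of 0.43 ± 0.38 and 0.30 ± 0.34, and the 4 probes of HDAC6 lay between -1.04 and -0.68. A probe of HDAC6 was called falling without C4 replicate 3 (-0.71 ± 0.18, adjusted p = 0.00256 in edgeR's test). It was also called in the 6 libraries of C3 and C5 alone (adjusted p = 0.0171) and without batch 3 (adjusted p = 0.000156). Histone genes gave 3 rising (27.3%) and 2 falling (18.2%) of 11 tested features, beside 9.94% and 15% of all features tested. H1F0, the linker histone of non-dividing cells, had 13.1, 6.51 and 3.42 CPM at C3 and 30.8, 54.9 and 25.5 CPM at C5 (2.31 ± 0.52, adjusted p = 0.00317). HIST2H2BE and H1FX rose from few counts, by 3.43 and from 2 counts to 34, and H2AFZ and H2AFX fell. The calls of HIST2H2BE, H1FX and H2AFZ were lost on leaving out any one of 3, 5 and 5 of the C3 and C5 libraries (up to adjusted p = 0.166, 0.138 and 0.125), and H1FX also with the batch as a block (0.0583). Histone genes have near copies, so probes may count more than 1 gene.

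Stress and signalling lists are set beside 9.94% rising and 15% falling of all features tested. Immediate-early and AP-1 genes gave 7 rising (46.7%) and 1 falling (6.67%) of 15 tested (median 0.80). JUND had 18.8, 28.4 and 26.6 CPM at C3 and 78.7, 95.6 and 116 CPM at C5 (1.96 ± 0.47, adjusted p = 0.00528), KLF2 rose by 2.13 ± 0.55, and FOSL1 fell (log2 change -1.81 ± 0.49, adjusted p = 0.0107). DUSP1, a phosphatase of MAP kinases, rose by 1.15 ± 0.31 and lost its call without C3 replicate 3 (adjusted p = 0.0698). Among chemokines and NF-kB targets 5 rose (31.25%) and 3 fell (18.75%) of 16 tested. CCL20, a chemokine for lymphocytes, had 14.0, 16.3 and 15.5 CPM at C3 and 139.8, 151 and 287 CPM at C5 (3.65 ± 0.35, adjusted p = 2.77e-06). BIRC3, an inhibitor of apoptosis, had 313, 407 and 416 CPM at C3 and 1673, 1715 and 1276 CPM at C5 (2.04 ± 0.42, adjusted p = 0.00185). The neutrophil chemokine CXCL8 rose, by 1.20 ± 0.30, while CXCL2 fell in both probes, from 277, 134 and 164 CPM to 44.4, 36.7 and 40.6 CPM in the stronger one. Interferon-stimulated genes gave 1 rising (5.56%) and 5 falling (27.8%) of 18 tested. The rising one, IFI6, was not called without C3 replicate 1 or C5 replicate 3 (up to adjusted p = 0.108). Without C4 replicate 3 the list gave 3 rising and 7 falling.

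NRF2 targets, the antioxidant response, split by gene. Of 17 tested features 8 fell (47.1%) and 2 rose (11.8%), beside 15% and 9.94% of all features tested (median -0.79). AKR1B10, an aldo-keto reductase, had 878, 823 and 1172 CPM at C3 and 98.7, 72.8 and 25.0 CPM at C5 (-3.86 ± 0.42, adjusted p = 5.52e-06). The 2 subunits of glutamate-cysteine ligase moved in opposite directions. GCLM, the modifier subunit, fell from 1213, 1075 and 1427 CPM to 489.7, 393 and 362 CPM (-1.58 ± 0.23, adjusted p = 8.24e-05), and GCLC, the catalytic one, rose from 135, 128 and 151 CPM to 649, 454 and 219 CPM (1.67 ± 0.31, adjusted p = 0.000752). HMOX1 was not called (0.84). Heat shock chaperones had 1 rising (5.26%) and 2 falling (10.5%) of 19 tested. The endoplasmic reticulum and integrated stress response had 2 rising (9.52%) and 1 falling (4.76%) of 21. In neither list did a share exceed that of all features tested. HSPA1B, an inducible chaperone, rose by 1.87 ± 0.43, and its near copy HSPA1A was not called (1.63), although reads may be shared between them. HSPB1, a small heat shock protein, fell by 0.85 on the log2 scale. ASNS, the asparagine synthetase, rose by 1.49 ± 0.36. The rise of ATF3 and the fall of HERPUD1 were lost on leaving out any one of 4 and 3 libraries (up to adjusted p = 0.252 and 0.107). DDIT3, ATF4 and HSPA5 were not called. Of 5 tested metallothioneins 1 rose, MT1A, whose call was lost without C3 replicate 2 or 3 or C5 replicate 3 (up to adjusted p = 0.157). Without C4 replicate 3, 3 of the 5 were called rising.

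**Figure D4:**
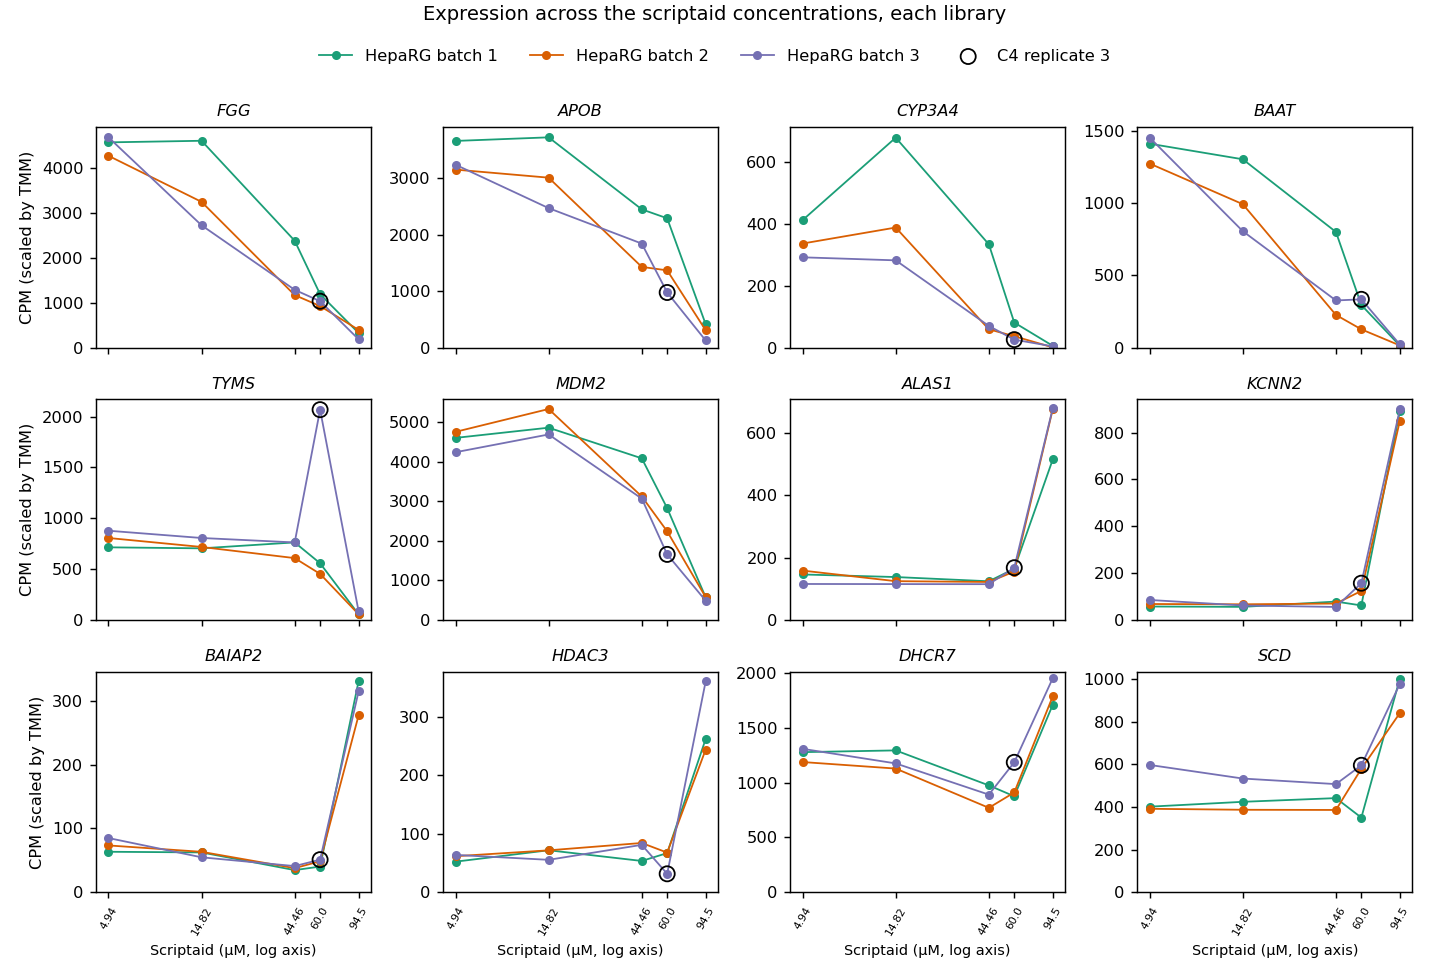
CPM of 12 features in each scriptaid library against concentration (log axis), with lines joining libraries of one HepaRG batch and a circle around C4 replicate 3. FGG, APOB, CYP3A4 and BAAT had a lower mean at C3 than at C1 and lay lower still in all 3 libraries at C5, while ALAS1, KCNN2, BAIAP2 and HDAC3 were higher in all 3 libraries at C5 than in any other library.

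Housekeeping and structural lists are set beside 9.94% rising and 15% falling of all features tested. Cytosolic ribosomal proteins gave 1 rising and 2 falling of 27 tested, and the calls of RPL11, RPL7 and RPS19 were lost on leaving out any one of 6, 5 and 5 of the libraries. Respiratory chain subunits gave 0 rising and 4 falling of 32 (median -0.35), and lysosome and autophagy genes 3 rising (14.3%) and 2 falling (9.52%) of 21. MAP1LC3B, a marker of autophagosomes, had 401, 382 and 420.5 CPM at C3 and 789.8, 841 and 874 CPM at C5 (1.06 ± 0.20, adjusted p = 0.00103). Mesenchymal and matrix genes gave 2 rising (6.9%) and 6 falling (20.7%) of 29. CCN1, a matrix protein that responds to growth factors, rose by 2.19 ± 0.37, and ACTA2, smooth muscle actin, changed by -2.47 ± 0.49, adjusted p = 0.00137. Of 6 tested biliary and progenitor features AFP was called, falling by 2.79 on the log2 scale, and KRT19 and SOX9 were not. Without C4 replicate 3, 2 of these 6 features were called rising and 2 falling. Of 22 neuronal genes 9 features passed the filter on low counts, of which 2 rose (ENO2 and SCG2), 1 fell and 6 were not called. The falling one was a probe of MAP2, a microtubule-associated protein, with 235, 194 and 272 CPM at C3 and 145, 149.5 and 92.1 CPM at C5 (-0.85 ± 0.30, adjusted p = 0.0433), and its call was lost on leaving out any one of 5 of the C3 and C5 libraries (up to adjusted p = 0.171).

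The same step was compared with those of vorinostat (3.643 to 23.5 µM) and tacedinaline (10.29 to 44 µM), each with 3 libraries per concentration from the same batches. Concentrations and their ratios differ between chemicals, so the tests compare these steps and not potency. In a fit of 30 libraries, 158 of 13187 features (1.2%) differed between the scriptaid and vorinostat steps, 103 higher (0.781%) and 55 lower (0.417%) with scriptaid. In that fit vorinostat's own step had 3856 called features (29.2%) and scriptaid's had 4070 (30.9%). The scriptaid count of 3190 came from the fit of 15 libraries. Against tacedinaline 550 of 13375 features (4.11%) differed, 262 higher (1.96%) and 288 lower (2.15%). In that fit tacedinaline's own step had 1811 called features (13.5%) and scriptaid's had 4183 (31.3%). Without C4 replicate 3 the numbers of differences were 480 and 1281. Without batch 1, 2 or 3 they were 26, 2 and 432 against vorinostat and 114, 48 and 939 against tacedinaline. A feature that passed no test of the difference is not shown to respond alike.

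Sterol and fatty acid genes were frequent among the differences from vorinostat. Of 28 tested cholesterol features 10 differed, and of 15 lipogenesis features 5, all higher with scriptaid, beside 1.2% of all features. Without batch 1, 2 or 3 the numbers were 3, 0 and 12 for cholesterol and 2, 2 and 7 for lipogenesis. The median log2 change of the cholesterol list was 0.20 with scriptaid and -0.99 with vorinostat. FASN, the fatty acid synthase, had 251, 232 and 260.3 CPM at C3 and 542, 366 and 189 CPM at C5 with scriptaid, which overlapped and was not called, and 271 ± 28.4 CPM at C3 and 39.2 ± 10.8 CPM at C5 (mean ± SD, n = 3) with vorinostat. The difference of the 2 log2 changes was 3.34 ± 0.36, adjusted p = 1.36e-06. SCD had 482 ± 78.1 CPM at C3 and 164 ± 20.4 CPM at C5 with vorinostat (difference 2.64 ± 0.30, adjusted p = 3.46e-06), and DHCR7 had 969.8 ± 47.4 CPM at C3 and 619 ± 56.5 CPM at C5 (difference 1.69 ± 0.23, adjusted p = 6.57e-05). Both rose with scriptaid and fell with vorinostat. LCN2, the acute-phase protein lipocalin, had 79.4 ± 34.2 CPM at C3 and 761 ± 46.5 CPM at C5 with vorinostat and was not called with scriptaid (0.62), a difference of -2.64 ± 0.40, adjusted p = 0.000249. SLC17A3, a renal and hepatic urate transporter, fell with scriptaid (-1.99) and stood at 28.8 ± 15.1 CPM at C3 and 49.1 ± 8.64 CPM at C5 with vorinostat (difference -2.76 ± 0.42, adjusted p = 0.000219). ZNF532 fell in both steps, and by more with scriptaid (difference -2.65 ± 0.42, adjusted p = 0.000356).

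In the cell cycle list 13 of 25 tested features differed from tacedinaline, all lower with scriptaid, beside 4.11% of all features. Without batch 1, 2 or 3 the number was 5, 3 and 13. Against vorinostat 0 of 24 differed in edgeR's test (4 at an unadjusted p under 0.05), and 0 in DESeq2. The median log2 change was 0.13 in tacedinaline's step and -1.73 in vorinostat's. ANLN, a protein of the dividing cell's furrow, had 258, 174 and 302 CPM at C3 and 67.4, 64.6 and 60.4 CPM at C5 with scriptaid and 226 ± 11.3 CPM at C3 and 262 ± 26.2 CPM at C5 with tacedinaline (difference -2.13 ± 0.28, adjusted p = 9.51e-06). E2F8, a repressor of the cell cycle programme, had 119, 134 and 123 CPM at C3 and 16.3, 22.1 and 13.0 CPM at C5 with scriptaid and 47.2 ± 9.68 CPM at C3 and 48.5 ± 5.40 CPM at C5 with tacedinaline (difference -2.88 ± 0.36, adjusted p = 5.27e-06). PLIN2, the coat of lipid droplets, rose with scriptaid from 40.2, 37.0 and 44.5 CPM to 176, 153 and 147 CPM and fell with tacedinaline, with 157 ± 7.26 CPM at C3 and 35.3 ± 4.28 CPM at C5 (difference 4.14 ± 0.30, adjusted p = 4.77e-11). The C3 level of PLIN2 with tacedinaline was near the C5 level with scriptaid. LMCD1, a LIM domain protein, rose with scriptaid (3.31) and stood at 156 ± 11.2 CPM at C3 and 152 ± 25.0 CPM at C5 with tacedinaline (difference 3.36 ± 0.34, adjusted p = 2.3e-07). ALAS1 gave a difference of 2.11 ± 0.23, adjusted p = 7.86e-07, and ZNF532 one of -3.89 ± 0.42, adjusted p = 6.25e-07. Of 27 plasma protein features 1 differed from vorinostat and 0 from tacedinaline in edgeR's test (12 and 3 at an unadjusted p under 0.05). Of 36 drug-metabolising features 0 and 3 differed (9 and 11 at an unadjusted p under 0.05).

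**Figure D5:**
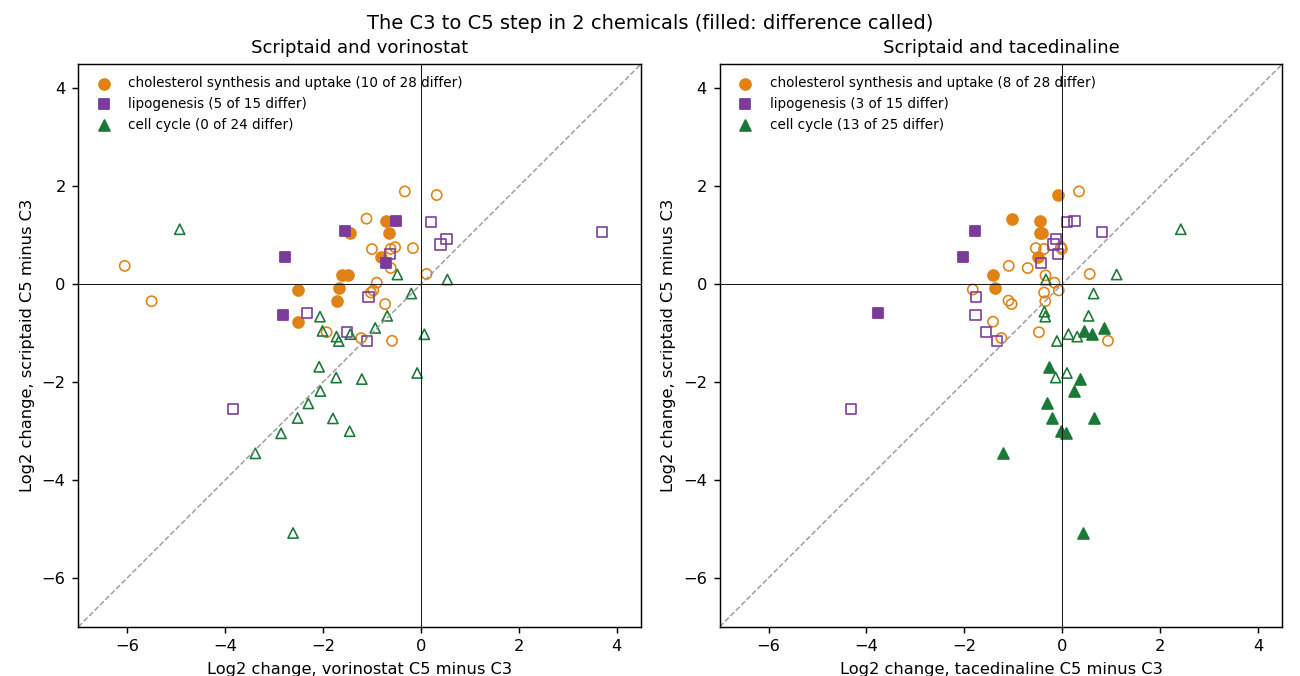
Log2 change from C3 to C5 with scriptaid (vertical axis) against that with vorinostat (left) and tacedinaline (right) for features of 3 lists, filled where the difference was called, with the dashed line marking equal change. Sterol and fatty acid features that differ lie above the line, 10 and 5 of them against vorinostat, and 13 cell cycle features lie below it against tacedinaline.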

How the data were processed

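Transcripts of HepaRG cells lysed after 72 h were measured with the TempO-Seq Human Whole Transcriptome panel. As deposited, the table holds raw counts of reads per probe feature and library, not normalized, for 22069 features and 118 libraries. According to the submitters' processing notes, bcl2fastq 2.20.422, fastp 0.23.2, STAR 2.7.10b and DESeq2 1.38.0 were used upstream. The genome build is not given in the sources used here. One feature without a value in every library was left out. Library totals ranged from 1061359 to 5250260 counts.

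Groups were taken from the labels. The 15 scriptaid libraries were fitted together in edgeR 4.0.16 (R 4.3.3), with filterByExpr by group, trimmed mean of M values (TMM) scaling, and the quasi-likelihood test with no block. A feature was called at a Benjamini-Hochberg adjusted p under 0.05 over all features tested and a change of at least 1.5-fold. CPM are counts over the TMM-scaled library. Differences between chemicals were fitted on 30 libraries. Features at 0 counts in a group are given against a floor of 3 counts per library, and those with 1 to 3 counts as a count ratio with a 95% exact binomial interval. The script was tested on simulated data. Features named include the 8 largest called rises and falls with a mean of at least 10 CPM in C3 or C5. These had to move the same way in all 3 batches. The others are the 3 lowest p-values in each direction, 4 per gene list and the 3 lowest p-values per difference and direction. One feature was taken per symbol except in lists. ALB, CEBPA, ONECUT2, POR, GDF15, KDR, INSIG1, further list members and all features given as not called were named after their values were seen. Some features that the rule names are not reported here. Members, gene lists and tests were chosen with earlier results of these data known. Replicates 1, 2 and 3 are HepaRG batches by the labels, so the numbers pair the libraries. Deviations of same-numbered C3 and C5 libraries from their group means correlated at 0.0208, 0.00594 and 0.0162. Of 19470 symbols 18807 were found in the RefSeq table of GRCh38.p14, from which promoters were read. Alternatives were other size factors, DESeq2 1.42.0, no filter, the batch as a block, the 6 libraries alone, thinned counts, summed probes, other fold limits and leaving out libraries.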

Additional observations from a re-analysis of the deposited data

Results flagged for a closer look

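The C3 to C5 step differed between scriptaid and other chemicals in a test of the difference itself, and concentrations were not matched. For 158 features the step differed from that of vorinostat, and for 550 from that of tacedinaline. Against vorinostat, with the scriptaid log2 change minus the other, FASN differed by 3.34, SCD by 2.64 and DHCR7 by 1.69, and SLC17A3 by -2.76, ZNF532 by -2.65 and LCN2 by -2.64. For LCN2 the mean at C5 was 761 ± 46.5 CPM (SD, n = 3) with vorinostat and 141 ± 47.8 CPM with scriptaid, from 79.4 ± 34.2 and 92.1 ± 32.9 CPM at C3. Against tacedinaline PLIN2 differed by 4.14, LMCD1 by 3.36 and ALAS1 by 2.11, and ZNF532 by -3.89, E2F8 by -2.88 and ANLN by -2.13. For ZNF532 the C3 level was 201 ± 32.03 CPM with scriptaid and 34.2 ± 9.15 CPM with tacedinaline, so the steps started from different levels.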

How the results depend on the processing

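The C5 against C3 count of 3190 was 3174 with relative log expression size factors, 3905 with DESeq2, 3345 with no filter on low counts, 3377 with the HepaRG batch as a replicate block, 3988 in the 6 libraries alone, 2985 with thinned counts, 3026 with summed probes and 2737 at a 2-fold limit. The share of rising features among those called was 39.8%, and 40.2% with relative log expression. Leaving out libraries moved it from 1019 (without batch 2) to 4842 (without C4 replicate 3), with 1181 without batch 1 and 4006 without batch 3, rising features from 249 to 2098 and falling ones from 770 to 2744. Leaving out C4 replicate 3 together with batch 1 or batch 2 gave 3733 and 3593. In other steps, leaving out libraries gave 0 to 219 calls for C3 against C2, 0 to 3 for C4 against C3, 1437 to 3854 for C5 against C4, 0 to 775 for C3 against C1 and 1516 to 5447 for C5 against C1. No filter gave 4 for C2 against C1, 154 for C3 against C2, 281 for C4 against C3 and 409 for C3 against C1. The replicate block gave 56 for C3 against C2 and 262 for C3 against C1. Leaving out libraries gave 2 to 480 differences from vorinostat and 48 to 1281 from tacedinaline. DESeq2 gave 321 and 827, and no filter gave 252 from vorinostat. Without C4 replicate 3 and batch 1 or 2, differences from vorinostat were 246 and 99. Among 129 named features checked, no called one reversed in direction under these alternatives, summed probes aside. Other features named in the text were not part of this check. Of 28 list medians, 8 changed sign under at least 1 alternative, all between -0.12 and 0.50 in the reported fit. Chemokines and NF-kB targets went from 0.26 to between -0.42 and 0.82, the BCL2 family from 0.07 to between -0.24 and 0.16, the endoplasmic reticulum and integrated stress response from 0.15 to between -0.12 and 0.20, lysosome and autophagy from -0.12 to between -0.25 and 0.07, cytosolic ribosomal proteins from -0.01 to between -0.10 and 0.14, biliary and progenitor markers from 0.50 to between -0.06 and 0.77, and heat shock chaperones and histone genes from -0.02 and -0.04 to as high as 0.16 and 0.07. The medians of 4 lists moved by over 1.5-fold, gluconeogenesis and glycogen (-1.40 to -0.44), CDK inhibitors and p53 targets (-1.63 to -0.76), chemokines and NF-kB targets, and neuronal genes (1.57, and 0.28 to 2.26 over the alternatives). The 129 named features with a log2 change include 13 histone deacetylase features that had no call to lose. Of the 129, 24 lost their call without 1 of the C3 or C5 libraries, 36 without batch 1, 52 without batch 2 and 7 without batch 3. The causes were not tested. The replicate block changed no other call of a named feature than those of ACACA and H1FX. Depth limits features with few counts, for which the fitted change rests on the floor or the prior count.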
